A study of Homo sapiens with 6 samples.

Results

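The sites described here are stretches of the genome covered by PAR-CLIP reads that lie in genes for small nuclear RNAs (snRNAs), most of them spliceosomal. A site was counted when its midpoint fell, on the same strand, in a gene typed as snRNA in the GENCODE annotation on hg19. That held for 1110 of the 10639684 sites in the 6 libraries. Of the 1914 annotated snRNA genes, 431 had a site in at least 1 library. Of these 1110 sites, 130 lay in genes with a spliceosomal name, 958 in pseudogene copies, and 22 in 7SK, U7 and unnumbered snRNA genes.

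All libraries came from HEK293 cells, a human embryonic kidney line, grown with the uridine analog 4SU, irradiated at UV 365 nm and treated with RNase T1, which cuts after G. G20, G35 and G45 are gel slices at about 20, 35 and 45 kDa from a FLAG M2 immunoprecipitation (IP) of FLAG-tagged green fluorescent protein (GFP), a control that is not known to bind RNA. The HuR libraries, replicates 1 and 2, came from the same IP of FLAG-tagged HuR, which binds U-rich RNA. Total was made without IP from lysate that was also digested with proteinase K and depleted of rRNA with RiboZero. Both tagged proteins were induced with doxycycline in stable lines, and the source of the Total lysate among these lines is not given in the sources used here. Each slice and Total were 1 library each with no replicate check, and nothing states whether the HuR replicates were separate cultures. Of the HEK293 markers checked in Total exons, LIN28B held 627 reads, PAX2 24 and NEFM 4. Of markers of other cell types, ALB held 41 reads, PTPRC 3, CDH5 2 and CD3E 0, so NEFM was near 0 and ALB was above PAX2.

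Spliceosomal snRNAs are short nuclear RNAs that work as RNA-protein particles (snRNPs) to remove introns. U1 pairs with the 5′ splice site, U2 with the branch point, and U4, U5 and U6 join as a tri-snRNP in which U4 holds U6 until activation. U11, U12, U4ATAC and U6ATAC do the corresponding work at a rare class of introns. Most of these RNAs carry a ring of Sm proteins on a short U-rich stretch, whereas U6 and U6ATAC carry LSM proteins. The genome also holds many copies of each family, most of them taken to be pseudogenes.

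Which of these RNAs can be seen at all was limited by the repeated sequence, since the authors kept only reads with a single best place in the genome. Of the 25 U1 genes (RNU1 and RNVU1 names), 15 had no stretch of 30 nt found once in the genome, and of the 5 U6 genes all 5 had none. Sites were found in 9 of 25 U1 genes, 2 of 2 U4 genes, 5 of 5 U5 genes, 2 of 5 U6 genes, the RNU4ATAC gene and the RNU6ATAC gene. For U2, U11 and U12 the annotation holds 0 snRNA genes with a name that is not a pseudogene name, so these families are represented by copies only. RNU2-2P, whose name marks a pseudogene, is therefore counted among the copies. Of the 1855 copies, 403 had a site, among them 73 of 116 U1 copies, 53 of 70 U2 copies, 16 of 26 U5 copies and 193 of 1316 U6 copies.

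The sequences of 5 genes that carried many reads are given from 5′ to 3′ as the RNA strand of GRCh37, the same build as hg19. In RNU2-2P, RNU4-2 and RNU4ATAC the capitals mark a run that matches ATTTTTG or ATTTTTTG, the letters searched for on the strand of the gene as a Sm-type stretch. In RNU7-1 the capitals mark positions 44 to 63, which the main site covered in every library, and in RNVU1-14 positions 16 to 69, the main site in HuR replicate 2.
RNU2-2P (chr11:62609091-62609281, minus strand, within WDR74 on the same strand): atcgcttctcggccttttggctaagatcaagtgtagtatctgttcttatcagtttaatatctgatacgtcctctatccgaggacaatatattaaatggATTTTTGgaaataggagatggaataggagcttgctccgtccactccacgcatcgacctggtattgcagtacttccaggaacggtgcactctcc
RNU4-2 (chr12:120729566-120729706, minus strand): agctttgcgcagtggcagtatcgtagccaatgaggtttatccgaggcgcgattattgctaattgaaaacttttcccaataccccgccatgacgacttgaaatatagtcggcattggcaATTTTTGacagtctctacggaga
RNU4ATAC (chr2:122288457-122288583, plus strand, within CLASP1-AS1 on the same strand and opposite to CLASP1): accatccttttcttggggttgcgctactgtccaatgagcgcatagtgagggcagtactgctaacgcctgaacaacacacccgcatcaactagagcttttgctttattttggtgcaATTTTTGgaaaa
RNU7-1 (chr12:7052979-7053041, plus strand, within C12orf57 on the same strand): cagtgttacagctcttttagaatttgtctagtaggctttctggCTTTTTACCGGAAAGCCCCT
RNVU1-14 (chr1:148241465-148241628, plus strand, within ENSG00000276216 on the same strand): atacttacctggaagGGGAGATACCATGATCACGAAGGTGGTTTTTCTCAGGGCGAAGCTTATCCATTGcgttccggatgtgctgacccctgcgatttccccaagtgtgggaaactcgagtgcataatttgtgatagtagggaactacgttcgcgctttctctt

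The searched letters occurred in 2 of 2 U4 genes, 5 of 5 U5 genes and the U4ATAC gene, and in 0 of 25 U1 genes. As only these exact letters were searched, a gene without them may hold a Sm-type stretch of other letters. Among all 1914 snRNA genes 6.48% held them. In the copies the share was 6.25%, compared to 3.99% of windows of the same length placed 1000 nt downstream. Of the U4 reads, 100%, 100% and 97.5% in G20, G35 and G45, 60.7% and 100% in the HuR replicates and 96.6% in Total lay at sites that include these letters. For U5 the shares were 99.5%, 100% and 87.8% in the slices, 80.8% and 92.7% in HuR, and 97.7% in Total. Sites can span much of a gene, such as positions 19 to 144 for RNU4-2 in G20. A site that includes the letters thus does not place its reads on them. A match is a description of the letters and not evidence of a bound protein.

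Reads at snRNA sites were far more frequent in Total than in any IP library. They made up 0.813% of the reads of Total (95% Wilson interval 0.810 to 0.816). In the slices the share was highest in G35 at 0.0742% (0.0721 to 0.0764), followed by G20 at 0.0501% (0.0494 to 0.0508) and G45 at 0.0413% (0.0399 to 0.0428). In HuR it was 0.00935% in replicate 1 (0.00876 to 0.00999) and 0.0245% in replicate 2 (0.0240 to 0.0251), a mean of 0.0169% ± 0.0107 (SD, n = 2). The order of the groups was Total, then the slices, then HuR, with no overlap between the slices and the HuR replicates. These shares rest on 291952 snRNA reads in Total, on 19344, 4590 and 3113 in G20, G35 and G45, and on 891 and 7870 in HuR replicates 1 and 2. Reads carried no molecular identifiers, so all intervals cover counting error only.

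Scaled to RPM, the reads of a site per 1000000 reads of its library, snRNA sites held 8127 RPM in Total, 501, 742 and 413 RPM in G20, G35 and G45, and 93.5 and 245 RPM in the HuR replicates. Total was 16.2, 10.95 and 19.7 times the slices and 86.9 and 33.2 times the HuR replicates. The scaling matters for the order of the slices, because 10 sites held 76.5% of the reads of G20 and 61.9% of those of Total, and none of these was a snRNA site. Of the reads outside the 10 leading sites, snRNA sites held 0.213% in G20, 0.0924% in G35, 0.0523% in G45, 0.00972% and 0.0251% in HuR, and 2.13% in Total. On that scale G20 was above G35, whereas G35 was above G20 on the scale of all reads, and Total stayed above the slices and the slices above HuR on both.

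A few sites carried most of this signal. The first site held 76.6% of the snRNA reads of Total and 51.0% of those of G20, compared to 20.1% in G35, 31.3% in G45, and 23.7% and 13.3% in the HuR replicates. It took 2 sites to hold 90% of the snRNA reads in Total, 12, 18 and 21 in the slices, and 59 and 57 in HuR. Of the 431 genes with a site, 228 had one in a single library and 34 in all 6. Those 34 were 22 copies, the 5 U5 genes, 3 U1 genes, both U4 genes, RNU7-1 and RN7SK.

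**Figure D1:**
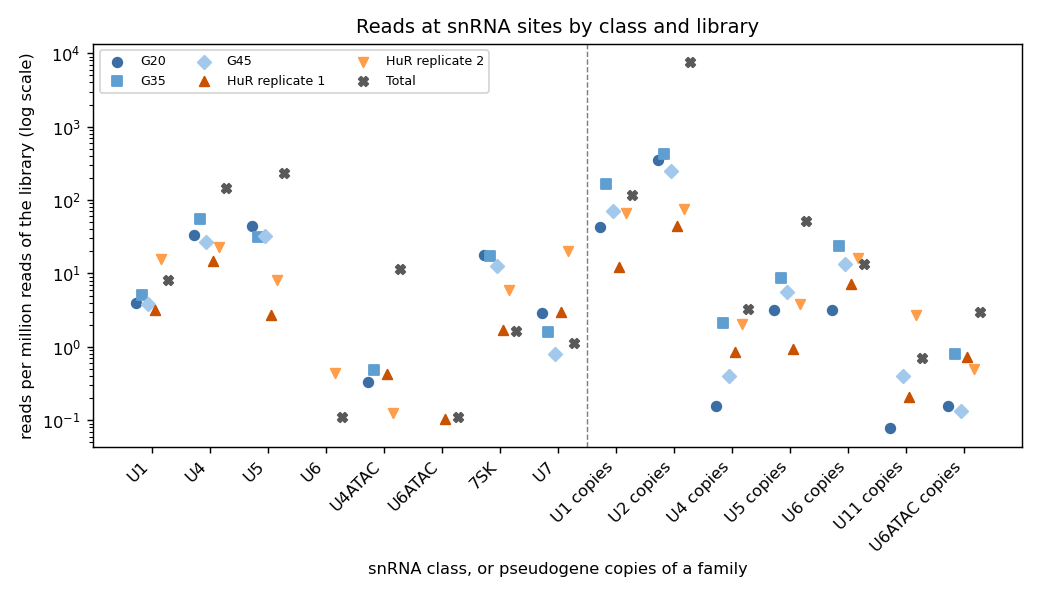
RPM (log scale) at snRNA sites by class and by family of pseudogene copies in the 6 libraries; a class with no read in a library has no point. The U2 copies of Total stand at the top of the plot, U5 points of Total lie above the slices and the slices above HuR, and for U1 and U7 HuR replicate 2 is the highest.

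Copies of U2 were the largest group in every library. They include RNU2-2P, which is known to be transcribed although its name marks a pseudogene, so values of the copies below contain it. They held 92.7% of the snRNA reads in Total, 69.4%, 57.9% and 59.7% in the slices, and 46.8% and 31.2% in HuR. RNU2-2P led in all 6 libraries, with 223582 reads in Total (6224 RPM), 9864, 924 and 974 reads in G20, G35 and G45 (255, 149 and 129 RPM), and 226 and 1043 reads in the HuR replicates (23.7 and 32.5 RPM). Total was 24.4 to 48.2 times the slices and 221 times the HuR mean of 28.1 ± 6.19 RPM (SD, n = 2). RNU2-2P lies in WDR74 on the same strand, so reads of the 2 transcripts cannot be told apart.

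RNU2-59P (chr10:103124602-103124792, minus strand), a U2 copy opposite to BTRC, followed the same order. It held 1185 RPM in Total, 27.6, 110 and 54.4 RPM in the slices, and 6.30 and 11.4 RPM in HuR. Its reads in Total may include reads of other U2 family members, given its conversions described below. Together RNU2-2P and RNU2-59P held 91.2% of the snRNA reads in Total, compared to 34.9% to 56.5% in the slices and 32.1% and 17.9% in HuR. Without both, snRNA sites still held 718 RPM in Total, 218, 483 and 229 RPM in the slices, and 63.5 and 201 RPM in HuR, so the difference between Total and the others was much smaller among the remaining genes. Without RNU2-36P as well (described below), they held 708 RPM in Total, 165, 354 and 192 RPM in the slices, and 52.6 and 178 RPM in HuR, so that HuR replicate 2 was then above G20. RNU2-6P, a further U2 copy (chr13:46948536-46948725, minus strand, within RUBCNL), came next among the copies in Total with 81.9 RPM and held 1.48, 6.79 and 2.12 RPM in the slices, 0 and 0.374 RPM in HuR.

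RNU2-36P, another U2 copy (chr9:89037853-89038043, minus strand), did not follow that order. It held 52.3, 129 and 37.7 RPM in G20, G35 and G45, 10.9 and 23.0 RPM in HuR, and 9.32 RPM in Total. The 3 slices were above both HuR replicates and Total, and this order of slices over Total also held on reads outside the 10 leading sites (222, 160 and 47.7 against 24.5 RPM). Against HuR, Total was lower on the scale of all reads and higher on the other scale, where HuR held 11.3 and 23.5 RPM.

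The genes for U5, the snRNA that aligns the exons at both steps of splicing, followed the order of RNU2-2P as a class. They held 231 RPM in Total, 44.6, 31.0 and 32.5 RPM in the slices, and 2.73 and 8.16 RPM in HuR. RNU5B-1 led the class in Total with 5187 reads (144 RPM), and held 306, 76 and 80 reads in the slices (7.92, 12.3 and 10.6 RPM) and 12 and 113 reads in HuR (1.26 and 3.52 RPM). Every slice was above both HuR replicates for each of the 5 U5 genes. RNU5E-1 led the class in G20 with 936 reads, 24.2 RPM, which was above its 21.3 RPM in Total, and in G35 and G45 it held 4.04 and 8.49 RPM. RNU5A-1 (chr15:65588389-65588504, plus strand) had the smallest ratio of Total to the HuR mean of the class, 10.3, with 7.32 RPM in Total, 3.03, 2.91 and 5.84 RPM in the slices, and 0.210 and 1.21 RPM in HuR.

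The U4 genes, RNU4-1 and RNU4-2, showed a smaller difference. U4 held 146 RPM in Total, 33.6, 55.3 and 26.5 RPM in the slices, and 14.7 and 23.3 RPM in HuR. RNU4-2 led in Total with 85.7 RPM, and held 11.7, 31.7 and 14.7 RPM in the slices and 4.83 and 8.19 RPM in HuR. RNU4-1 (chr12:120730900-120731040, minus strand) held 60.6 RPM in Total, 21.9, 23.6 and 11.8 RPM in the slices, and 9.87 and 15.1 RPM in HuR, so G45 and HuR replicate 2 overlapped for this gene. RNU4-1 led the class in both HuR replicates and in G20, and RNU4-2 in G35, G45 and Total.

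**Figure D2:**
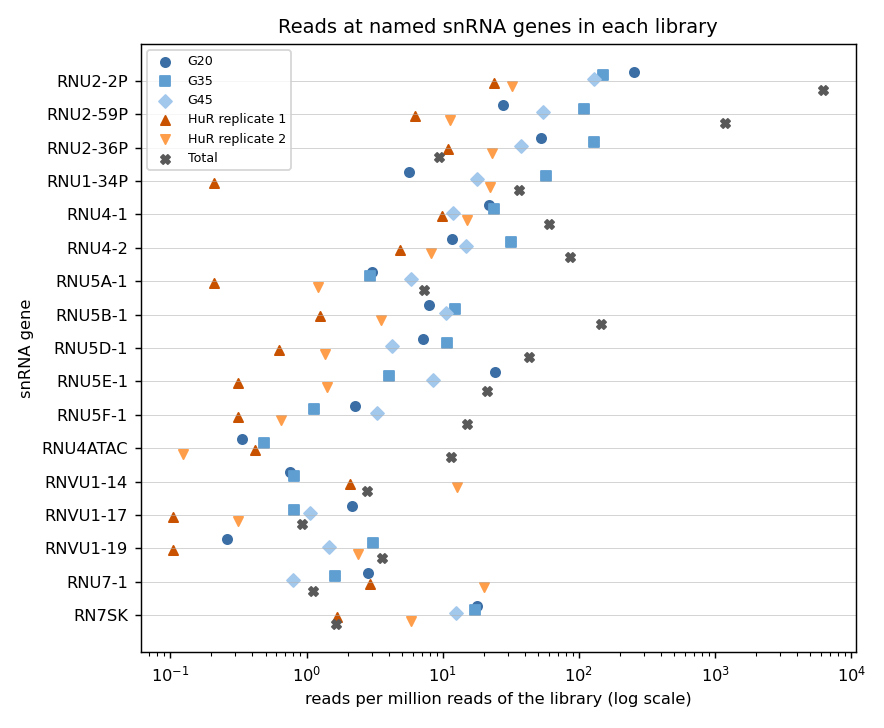
RPM (log scale) at 17 named snRNA genes in each library, with no point where a library had no read. Total (crosses) lies to the right for RNU2-2P, RNU2-59P, the U4 genes, RNU4ATAC and 4 of the 5 U5 genes, and to the left for RNU2-36P and RN7SK.

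Of the minor spliceosome, RNU4ATAC was read almost only in Total. It held 414 reads there, 11.5 RPM, compared to 13, 3 and 0 reads in G20, G35 and G45 and 4 reads in each HuR replicate. In G45 the floor of 3 reads corresponds to 0.398 RPM. RNU6ATAC, its pairing partner, held 4 reads in Total, 1 in HuR replicate 1 and 0 in the others, and U6 genes held 14 reads in HuR replicate 2, 4 in Total and 0 elsewhere. Since no U6 gene had a stretch of 30 nt found once and RNU6ATAC had them at only 12.4% of its positions, low counts of these RNAs cannot be told apart from reads that had no single place.

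U1 genes held few reads and no common order. The class held 3.91, 5.01 and 3.85 RPM in the slices, 3.15 and 15.98 RPM in HuR, and 8.27 RPM in Total. Total was 0.865 times the HuR mean, which 1 library decided, since Total was 2.62 times replicate 1 and 0.517 times replicate 2. On reads outside the 10 leading sites the ratio to the mean was 2.21. RNVU1-14, a variant U1 gene, held 409 of the 513 U1 reads of HuR replicate 2, and 20 in replicate 1, 29, 5 and 0 in the slices, and 99 in Total. RNVU1-17 led the class in G20 with 83 reads, and RNVU1-19 led it in G35, G45 and Total with 19, 11 and 129 reads.

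Copies of U1 were a larger group than the U1 genes. They held 43.0, 165 and 70.2 RPM in the slices, 12.1 and 66.8 RPM in HuR, and 118 RPM in Total. RNU1-34P (chr6:76183454-76183610, minus strand, within FILIP1 on the same strand) followed RNU2-2P and RNU2-36P in HuR replicate 2 with 715 reads and held 2 reads in HuR replicate 1, so the replicates differed by 22.3 against 0.210 RPM. It held 5.62, 56.9 and 17.8 RPM in the slices and 36.2 RPM in Total.

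Copies of the other families gave smaller signals. U5 copies held 52.2 RPM in Total, 3.18, 8.57 and 5.57 RPM in the slices, and 0.945 and 3.83 RPM in HuR, the same order as the U5 genes except that HuR replicate 2 was above G20. U6 copies held 13.4 RPM in Total, 3.16, 23.8 and 13.4 RPM in the slices, and 7.14 and 16.2 RPM in HuR, with no separation of the groups.

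Outside the spliceosome, RNU7-1, the U7 snRNA that directs the cutting of histone pre-mRNA, held most reads in HuR replicate 2. It held 644 reads there (20.1 RPM) and 28 in replicate 1 (2.94 RPM), compared to 110, 10 and 6 reads in the slices (2.85, 1.62 and 0.796 RPM) and 40 in Total (1.11 RPM). Both HuR replicates were the highest on the scale of all reads, but on reads outside the 10 leading sites G20 held 12.1 RPM, above HuR replicate 1 with 3.06 RPM. RNU7-1 lies within C12orf57 on the same strand. RN7SK (chr6:52860419-52860746, plus strand), which holds the transcription elongation factor P-TEFb inactive, held 17.9, 17.1 and 12.6 RPM in the slices, 1.68 and 5.89 RPM in HuR, and 1.64 RPM in Total. The slices were above HuR and Total for RN7SK on both scales. Stretches of 30 nt found once make up only 9.36% of RN7SK. Its low counts therefore cannot be told apart from reads that had no single place.

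Per 100 nt of gene, RNU2-2P held 3258 RPM in Total, RNU2-59P 621, RNU5B-1 124, RNU4-2 60.8 and RNU4-1 43.0. In HuR replicate 2 RNU7-1 held 31.8 RPM per 100 nt, RNU2-2P 17.01, RNU2-36P 12.0, RNU4-1 10.7 and RNVU1-14 7.77. In HuR replicate 1 RNU2-2P held 12.4 RPM per 100 nt, RNU4-1 7.0, RNU2-36P 5.72 and RNU7-1 4.67. These are selected genes and no ranking of all 431. The values also depend on how much of each gene can be mapped, since stretches of 30 nt found once make up 46.3% of RNU2-2P, 37.9% of RNU5B-1 and 58.8% of RNU7-1.

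Along the RNA, most reads of U4, U5 and the U2 copies belonged to sites with a midpoint in the 3′ part. Counting reads by the midpoint of their site, the 3′ part past the middle of the gene held 96.6% to 100% of U4 reads, 90.6% to 100% of U5 reads and 92.8% to 99.3% of the reads of U2 copies over the 6 libraries. For U1 genes the share was 76.8%, 83.9% and 48.3% in the slices, 53.3% and 32.0% in HuR, and 80.1% in Total. For U1 copies it was 57.0%, 35.0% and 58.98% in the slices, 66.1% and 29.2% in HuR, and 13.4% in Total. A long site counts by its midpoint only, and RNU2-2P was covered by 1 site of positions 32 to 199 in Total. The shares thus do not give the positions of reads within such sites.

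**Figure D3:**
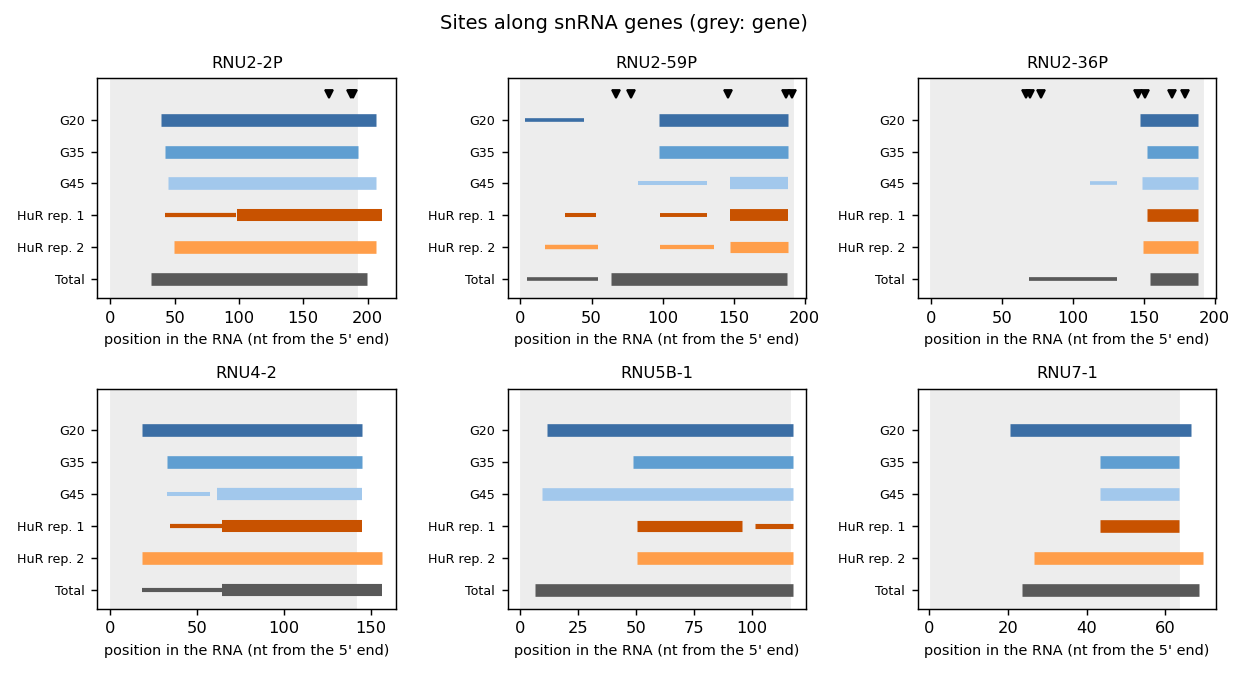
Extent of each site along 6 snRNA genes (position in nt from the 5′ end; grey marks the gene, thicker bars hold a larger share of the gene's reads); triangles above the U2 copies mark T positions where at least 25% of aligned family members have C. RNU2-2P is covered over most of its length, RNU2-36P almost only from about position 148 to 188, and RNU7-1 toward its 3′ end.

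The site of RNVU1-14 with the most reads lay in different places. It spanned positions 16 to 69 in HuR replicate 2 and 21 to 69 in HuR replicate 1, with 335 and 11 reads, a stretch that includes the run GGTTTTTCTC in the capitals above. In G20 and Total it spanned positions 72 to 131, with 18 and 72 reads, and in G35 positions 69 to 92 with 5 reads. For RNU7-1 every main site included positions 44 to 63, and it reached back to position 21 in G20, 24 in Total and 27 in HuR replicate 2.

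RNase T1 leaves a G at the 3′ end of a fragment. Of snRNA sites, 84.1% ended in G in Total, 65.9%, 46.9% and 49.5% in the slices, and 76.8% and 78.2% in HuR. Over all sites these shares were 95.2% in Total, 73.7%, 49.2% and 46.04% in the slices, and 85.2% and 93.2% in HuR, so snRNA sites were below all sites in 5 of the 6 libraries. The median length of snRNA sites was 29, 27 and 29 nt in the slices, 24 and 25 nt in HuR, and 25 nt in Total, longer than that of all sites (24, 19 and 18, 21 and 22, and 21 nt) in every library.

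T-to-C conversions, which mark crosslinked 4SU, were most frequent in HuR. Per 100 reads at snRNA sites, 32.2, 67.5 and 52.1 events were counted in G20, G35 and G45, 78.5 in each HuR replicate (SD 0.0529, n = 2), and 20.5 in Total. A read can carry up to 2 of them, so a value can pass 100. At all other sites the values were 18.7, 61.7 and 56.2 in the slices, 48.6 and 87.3 in HuR, and 37.1 in Total. Total was thus lower at snRNA sites than at other sites, whereas G20, G35 and HuR replicate 1 were higher. Outside the 10 leading sites, the other sites carried 53.7, 73.0 and 67.6 in the slices, 50.5 and 89.1 in HuR, and 23.3 in Total. Against these values G20 and G35 were lower at snRNA sites, Total was lower by less, and HuR replicate 1 stayed higher. The leading snRNA site decides much of the values at snRNA sites. Without it they were 54.7, 72.0 and 62.1 in the slices, 80.5 in HuR as a mean, and 75.7 in Total, where RNU2-59P then led.

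By class, U4 showed the widest difference between HuR and the others. U4 reads carried 95 events per 100 reads in both HuR replicates, 10.8, 14.9 and 34.5 in the slices, and 9.34 in Total. Among these, RNU4-1 carried 97.9 and 98.8 in HuR and 6.71 in Total, and RNU4-2 carried 89.1 and 88.2 in HuR and 11.2 in Total. U5 reads carried 61.5 and 63.4 in HuR, 13.6, 41.1 and 33.5 in the slices, and 11.4 in Total, and U1 reads carried 86.7 and 73.1 in HuR, 25.2, 38.7 and 17.2 in the slices, and 24.2 in Total. For these 3 classes both HuR replicates lay above all slices and Total. Within U5, RNU5D-1 did not follow this order, with 80.3 in G35 (66 reads) and 70.5 in HuR replicate 2 (44 reads). It held 53 of the 79 U5 events of G35. Its site there covers positions 71, 73 and 79, where it differs from RNU5B-1 by C71T, C73T and C79T. Such events cannot be told apart from differences between genes of the family. In HuR replicate 1 the U5 and U1 values rest on 26 and 30 reads, and in G35 and G45 U1 rests on 31 and 29. Compared to other sites of the same library, U5 and U1 lay below in HuR replicate 2 (87.3) and above in replicate 1 (48.6). With 1 library per slice and for Total, these differences were not tested.

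The other RNAs differed in this order. RNU7-1 carried 96.4 and 108 events per 100 reads in HuR, 25.5 in G20 and 45.0 in Total. RN7SK carried 77.8 in HuR replicate 2, but 84.9 in G35, 49.5 in G45, 8.82 in G20 and 8.47 in Total. U1 copies carried 35.7 and 53.2 in HuR, 26.8, 31.8 and 41.4 in the slices, and 13.04 in Total, so that HuR replicate 1 lay below G45. RNU6-893P carried none in the 4 libraries that held it.

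**Figure D4:**
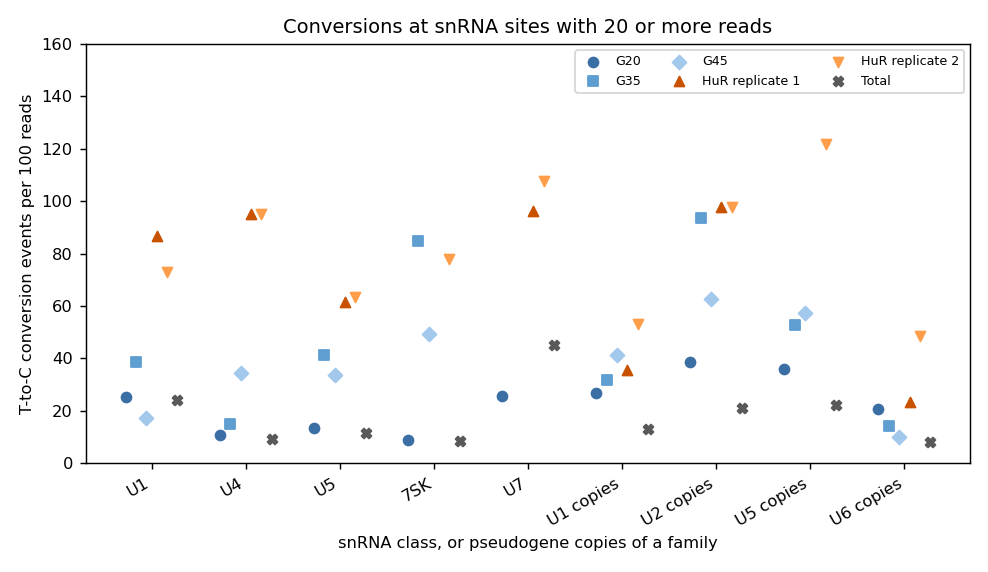
T-to-C conversion events per 100 reads by class and by family of copies, for library and class pairs with 20 or more reads. The HuR points lie above the others for U1, U4, U5 and U7, and Total is lowest or next to lowest in each class drawn. Copies of U4 and U11 are not drawn, and there Total, at 58.1 and 24.0, was above HuR replicate 2, at 25.8 and 22.7.

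RNU2-36P stood apart in every library. It carried 190, 195 and 193 events per 100 reads in G20, G35 and G45, 194 and 197 in HuR, and 179 in Total. As a read holds at most 2, at least 90.3%, 94.7% and 93.3% of its reads in the slices, 94.2% and 97.2% in HuR and 78.5% in Total carried 2 conversions. This rate hardly differed between IP libraries and Total, unlike that of the U4 and U5 genes. Its main site ended at position 188 in every library and began between positions 148 and 155.

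The stretch from position 148 to 188 is shown for RNU2-36P, RNU2-59P and RNU2-2P on GRCh37, with capitals at positions 151, 170 and 179, where RNU2-36P has T and at least 25% of aligned U2 family members have C.
RNU2-36P (chr9:89037856-89037896, minus strand): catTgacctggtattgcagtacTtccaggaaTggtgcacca
RNU2-59P (chr10:103124605-103124645, minus strand): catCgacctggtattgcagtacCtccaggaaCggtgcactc
RNU2-2P (chr11:62609094-62609134, minus strand): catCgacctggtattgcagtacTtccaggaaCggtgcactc
Counted from the 5′ end, RNU2-36P differs from RNU2-2P by C151T and C179T, while at position 170 the family member RNU2-2P has T as well. At positions 151, 170 and 179, C was found in 44.0%, 67.4% and 47.9% of aligned family members. A read from a family member with C at such positions and a read of RNU2-36P with T-to-C conversions there have the same letters, so the events at this gene cannot be told apart from differences between copies.

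RNU2-36P weighed on the family value. It held 15.0%, 29.9% and 15.3% of the U2 copy reads of the slices but 73.9%, 62.4% and 47.1% of their events, and in HuR 24.9% and 29.97% of the reads but 49.6% and 60.4% of the events. In Total it held 0.124% of the reads and 1.05% of the events. The other U2 copies carried 11.9, 50.1 and 39.1 events per 100 reads in the slices, 65.5 and 55.4 in HuR, and 20.9 in Total. Without it, RNU2-2P and RNU2-59P, all snRNA sites carried 19.2, 35.3 and 41.7 in the slices, 60.3 and 68.5 in HuR, and 24.1 in Total. On this basis both HuR replicates again lay above all slices and Total, whereas G20 then lay below Total instead of above it. The value of Total still includes RNU2-6P, whose main site there held 3084 events in 2937 reads. That site covers position 66, where RNU2-6P differs from RNU2-2P by C66T. The order of G20 and Total thus rests in part on events that cannot be told apart from differences between copies.

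RNU2-59P showed a comparable pattern in Total alone. There, its main site at positions 64 to 187 held 45041 events in 42574 reads, 106 per 100 reads, and covered positions 67, 78 and 146, where it differs from RNU2-2P by C67T, C78T and C146T. These events of RNU2-59P likewise cannot be told apart from differences between copies. In the other libraries its main site began at position 98 or 148 and carried 10.7, 46.8 and 39.5 events per 100 reads in the slices and 41.8 in each HuR replicate. RNU2-2P carried 3.61 events per 100 reads in Total, compared to 10.6, 49.4 and 30.3 in the slices and 75.2 and 61.7 in HuR. RNU2-6P carried 105 in Total over 2943 reads. Its main site there, at positions 58 to 118, covers position 66, where it differs from RNU2-2P by C66T. The limit given for RNU2-59P thus holds for it as well.

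Differences per gene were then tested with edgeR over 27975 genes. The spread came from the HuR pair alone (1 residual degree of freedom), and the single libraries were assumed to vary alike. It was pooled across genes (infinite prior degrees of freedom). The adjusted p of a gene thus does not reflect its own difference between the HuR replicates. Only 82 of the 431 snRNA genes passed the filter on low counts, and a gene that passed through 1 deep library could hardly avoid a difference, so counts over these 82 are a description. The 3 comparisons share their libraries. Over all genes the median log2 fold change was 0.63 for HuR against Total, 0.82 for HuR against slices and -0.60 for slices against Total, and each value below is to be read against it. The medians of the 82 snRNA genes were -3.19, -2.43 and -0.97.

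For HuR against Total, 25 of 82 snRNA genes (30.5%) were called lower, against a background of 2.84% of all genes called lower, and 0 were called higher, against 2.04% (3 at an unadjusted p under 0.05). The 25 were the 5 U5 genes, RNU4ATAC and 19 copies. These counts are a description, as the filter also let in genes with many reads in Total alone. RNU4ATAC is such a gene, with 414 reads in Total and at most 13 in any other library. RNU2-2P had a log2 fold change of -8.73 (approximate SE 1.74, edgeR adjusted p = 0.000208), RNU2-59P of -8.02 (adjusted p = 0.00264) and RNU4ATAC of -6.44 (adjusted p = 0.000231). The U5 genes ranged from -4.24 for RNU5A-1 (adjusted p = 0.0278) to -6.87 for RNU5B-1 (adjusted p = 0.00591). RNU4-2 at -4.67 (adjusted p = 0.0617) and RNU4-1 at -3.22 (adjusted p = 0.221) did not pass, nor did any of the 5 U1 genes tested, of which 3 had an unadjusted p under 0.05. RNU2-36P was at -0.10 (adjusted p = 0.983), RNU7-1 at 2.35 (adjusted p = 0.348) and RNVU1-14 at 0.42 (adjusted p = 0.905).

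For HuR against slices, 18 of 82 (21.95%) were called lower, against 2.20% of all genes, and 0 were called higher, against 3.16% (1 at an unadjusted p under 0.05). They were 4 of the 5 U5 genes, RNVU1-17 and 13 copies. RNU5E-1 was at -5.34 (adjusted p = 0.0155), RNVU1-17 at -4.30 (adjusted p = 0.00800) and RNU2-2P at -4.51 (adjusted p = 0.0262), whereas RNU5B-1 at -4.01 (adjusted p = 0.0721), RN7SK at -4.0 (adjusted p = 0.0562) and RNU2-36P at -3.84 (adjusted p = 0.0994) did not pass.

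For slices against Total, 9 of 82 (10.98%) were called lower, against 2.07% of all genes, and 1 was called higher, against 3.15%. RNU4ATAC at -6.04 (adjusted p = 0.00387) and RNU2-2P at -4.22 (adjusted p = 0.0296) were among the 9, with 7 other copies. Here too, RNU4ATAC is a gene with many reads in Total alone. None of the 5 U5 genes passed, the lowest being RNU5B-1 at -2.86 (adjusted p = 0.191), the 1 with an unadjusted p under 0.05. The gene called higher was RNU6-893P, a U6 copy opposite to DLAT that was chosen after its values were seen, with 23, 52 and 43 reads in the slices, 0 and 57 in HuR, and 0 in Total.

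No call remained without G20. For HuR against Total, RNU2-2P was then at -9.06 and RNU5B-1 at -7.32, and the median of the 55 snRNA genes tested was -3.92. Why the calls were lost was not tested. In this fit over 23904 genes, edgeR called 0 genes in each comparison, where the smallest adjusted p was 0.158, 0.164 and 0.116, although 4214, 5075 and 7315 genes had an unadjusted p under 0.05, among them 32, 28 and 15 snRNA genes that were lower. DESeq2 on all libraries called 626 of 17127, 1406 of 16043 and 207 of 18212 genes lower, and 910, 527 and 1980 higher. Of the 33, 31 and 33 snRNA genes with an adjusted p, it called 17, 22 and 6 lower and 0, 0 and 3 higher. Among those lower were RNU4-1 and RNU4-2 for HuR against Total (DESeq2 adjusted p = 0.0109 and 7.15e-05) and against slices (0.00300 and 3.27e-05), and RNU5B-1 in all 3 comparisons. The split of calls moved with the scaling. Without scaling factors, HuR against Total gave 1592 higher and 1076 lower over all genes, in place of 571 and 795. For HuR against slices it gave 14595 and 472 in place of 885 and 616, with 8 snRNA genes higher and 18 lower. For slices against Total it gave 1192 and 8105 in place of 880 and 579.

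**Figure D5:**
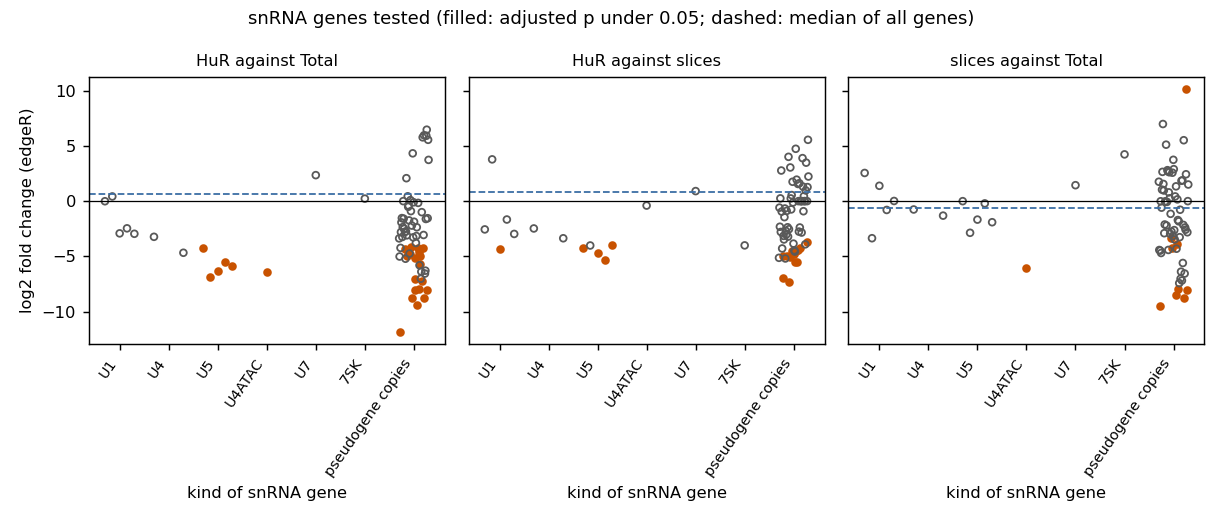
Log2 fold changes of the 82 snRNA genes tested by kind, in the 3 comparisons; filled points passed an edgeR adjusted p under 0.05 with all 6 libraries, and the dashed line is the median over all genes. Genes with no read in 1 group are drawn at a value that depends on the prior count. The 5 U5 genes are filled for HuR against Total, 4 of them for HuR against slices, and none for slices against Total.

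Genes for the proteins that build these particles were counted in the same fit. Of 62 genes for Sm, LSM and other snRNP proteins and their assembly, all of them tested, 1 passed for HuR against Total: SF3B5, a U2 protein, lower at -4.30 (edgeR adjusted p = 0.0128), against 2.84% of all genes. For HuR against slices, 3 were higher, against 3.16% of all genes: SF3B6 of U2 at 5.79 (adjusted p = 0.0212), SNRPG of the Sm ring at 3.07 (adjusted p = 0.0403) and GEMIN2 of the assembly complex at 4.90 (adjusted p = 0.0114). For slices against Total, 2 were lower, against 2.07% of all genes: SF3B6 at -7.34 with 6, 0 and 0 reads in the slices (adjusted p = 0.00387) and SNRPC of U1 at -4.62 (adjusted p = 0.0162). These counts are near the background and are no result about the list. The medians of the list were -0.78, 0.77 and -1.19, beside the medians of all genes above.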

How the data were processed

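The authors sequenced single reads of 50 nt, removed adapters, and mapped them to hg19 with Bowtie, as the submitters' processing notes name, with up to 2 mismatches. PARalyzer kept uniquely mapping reads with at most 2 T-to-C mismatches. Versions and removal of PCR duplicates are not given in the sources used here. For each site, the deposited tables give the number of reads, converted positions and conversion events as raw whole-number counts. The deposited cluster tables also hold a mode score, a fraction, which was used for no result.

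The libraries held 38644636 (G20), 6187300 (G35), 7539669 (G45), 9525265 and 32111810 (HuR replicates 1 and 2) and 35924998 (Total) reads at sites. Sites were assigned to GENCODE release 44 snRNA genes on GRCh37 by midpoint and strand. Names ending in P counted as pseudogene copies. Shares carry 95% Wilson intervals, and events per 100 reads are given from 20 reads on. A stretch of 30 nt was called found once when it occurs at 1 place on both strands of the genome. Copies were aligned to 1 family reference and kept from 50% of its length and 70% identity.

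For the tests, reads were summed per gene over 46556 genes and fitted with edgeR 4.0.16 (quasi-likelihood, TMM, filterByExpr, Benjamini-Hochberg adjusted p under 0.05) in R 4.3.3. The approximate SE is the log2 fold change divided by the root of F. The fit was tested on simulated data. Python 3.11.15, pandas 2.3.3, pysam 0.24.0, Biopython 1.88 and samtools 1.23.1 were also used. Alternatives were clusters, overlap, read minimum, leading sites, gene lists, scaling, DESeq2 1.42.0, slices as 1 group, and left-out libraries, and 1 alternative with genes typed lncRNA was chosen after seeing the data.

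Members and lists were chosen with earlier results of these data known. Named genes are the genes of the 9 classes, RNU2-2P, RNU7-1, and the 3 copies or other snRNA genes that led each library by reads; a class is represented by its leading gene per library. RN7SK was added after its values were seen. The authors' own gene annotation of sites was not used here. The sequence of RNU5B-1 is not reported here.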

Additional observations from a re-analysis of the deposited data

How the results depend on the processing

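The share of reads at snRNA sites changed in size but not in the order of Total, slices and the HuR mean under the alternatives of this paragraph. It was 0.0596%, 0.0805% and 0.0454% in G20, G35 and G45, 0.0289% in HuR and 1.21% in Total with clusters in place of all sites. Without the leading snRNA site it was 0.0245%, 0.0593% and 0.0284% in the slices and 0.190% in Total, and with the 9 classes alone 0.00824%, 0.00918%, 0.00629%, 0.00345% in HuR and 0.0397%. On reads outside the 10 leading sites it was 0.213%, 0.0924%, 0.0523% and 2.13%. With the lncRNA-typed genes added, it was 0.0541%, 0.0836%, 0.0458% and 0.846%.

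Events per 100 reads were 74.0 in G35, 54.9 in G45 and 90.6 in HuR with clusters. In HuR they were 79.7 with 1 bp of overlap and 82.1 with 5 or more reads. Without the leading site they were 54.7, 72.0 and 62.1 in the slices, 80.5 in HuR and 75.7 in Total, where RNU2-59P then led. With the 9 classes alone they were 13.1, 25.7, 32.9, 85.6 and 10.9.

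The ratio of Total to HuR was 0.865 for U1 (0.517 to 2.62 with 1 HuR replicate), 7.71 for U4 (19.6 outside the leading sites and 4.598 with clusters), 42.4 for U5 (108 outside the leading sites, 28.3 to 84.6 with 1 replicate) and 64.8 for the copies (165, 45.3 to 114 with 1 replicate, and 16.5 with RNU2-2P counted as a U2 gene).

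For HuR against Total, the 1366 genes called became 2543 with RLE factors, 2668 with no factors and 0 without G20, and the 25 snRNA genes called lower became 16 with slices as 1 group and 0 without G20. With slices as 1 group, 516 of all 27975 genes were called lower. For HuR against slices, 1501 became 2544, 15067 and 0, and 18 snRNA genes became 32 with RLE and 0. With RLE, 1403 of all 27975 genes were called lower. For slices against Total, 1459 became 3106, 9297, 939 with no filter and 0, and 9 became 30 with no factors, 3 with slices as 1 group and 0. Of all 27975 genes, 8105 were called lower with no factors and 131 with slices as 1 group. The 30 of 82 with no factors are thus no result about snRNA genes. The causes were not tested.

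The sign of some log2 fold changes turned. For HuR against Total, RNU2-36P came to 0.17 with no factors and -0.50 to 0.23 with 1 HuR replicate, and RNVU1-14 to -0.11 without G20 and -1.12 to 1.14 with 1 HuR replicate. For HuR against slices, RNU4ATAC came to 1.23 with no factors, 1.19 without G20 and -1.41 to 0.25 with 1 HuR replicate, and RNU7-1 to -0.043 with slices as 1 group and -0.90 to 1.66 with 1 HuR replicate. For slices against Total, RNU5E-1 came to 1.13 with slices as 1 group, and RNU5A-1 to 0.20 with RLE, 0.20 with DESeq2, 0.26 with slices as 1 group and -0.0051 to 0.12 with 1 HuR replicate. None of these was called. No paired analysis was possible because the groups compared share fewer than 2 replicate numbers.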

Other observations

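For U11 and U12, whose RNAs pair with the 5′ splice site and branch point of minor introns, the annotation holds snRNA genes only as copies, and these held few reads. Both lncRNA-typed genes named next align with such copies and held more. The gene with identifier ENSG00000270103 (chr1:28975112-28975242, plus strand) shares 89.1% of 129 aligned bases with the U11 copy RNU11-3P. It held 7400 reads in Total (206 RPM), 542, 86 and 97 in G20, G35 and G45 (14.03, 13.9 and 12.9 RPM), and 127 and 0 in HuR replicates 1 and 2 (13.3 and 0 RPM). The slices and HuR replicate 1 were thus nearly level and the HuR replicates were not. The gene with identifier ENSG00000270022 (chr22:43011250-43011913, plus strand) shares 94.0% of 150 aligned bases with the U12 copy RNU12-2P. It held 4524 reads in Total (126 RPM), 1002, 496 and 244 in the slices (25.9, 80.2 and 32.4 RPM), and 60 and 392 in HuR (6.30 and 12.2 RPM), the same order of groups as the U5 genes. These reads were counted over the gene and not within the 150 aligned bases, so they are not shown to come from the U12-like part. Copies of U11 held 88 reads in HuR replicate 2, 2 in replicate 1, 3, 0 and 3 in the slices, and 25 in Total.

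Conversions also varied with the number of T positions of a site at which at least 25% of aligned family members have C. In HuR replicate 2, sites with 0, 1, 2 and 3 or more such positions carried 55.8, 65.6, 89.9 and 117 events per 100 reads, and the mean number of T per site was 7.89, 8.63, 9.93 and 14.1. In Total the values were 10.3, 65.5, 19.7 and 20.0, with no steady order. In G35 sites with 0 carried 23.6 and sites with 2 carried 122. Sites with 3 or more such positions had a longer median length than sites with 0 in every library, 28 against 23 nt in HuR replicate 2. The median did not rise at each step there, with 26 and 31 nt for 1 and 2 positions. The part of site length in these values was not tested.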
